A study of Mus musculus with 6 samples.

Results

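The insulin-like growth factor (IGF) axis was followed through 10 genes: the ligands Igf1 and Igf2, the receptors Igf1r and Igf2r, and the IGF-binding proteins Igfbp2 to Igfbp7. The genes were chosen by symbol, and all 10 were found among the 21989 symbols of the deposited expression table. The RNA came from left ventricles of male C57BL/6 mice. The ISO group, which the labels call a heart failure model, received 10 mg/kg of ISO per day under the skin for 3 weeks. That name commonly stands for isoproterenol, an agonist of beta-adrenergic receptors. The saline group, labelled sham, received an equal volume of saline by the same route. Each group held 3 libraries of polyadenylated RNA. The libraries are labelled biological repeats, with no animals named, so every p-value reflects only how far these libraries scatter, which may be technical. Ages are not stated in the sources used here.

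IGF1 and IGF2 are small secreted hormones of the insulin family. Both signal through the IGF1 receptor, a tyrosine kinase, while the IGF2 receptor takes IGF2 to lysosomes and has no kinase of its own. The binding proteins hold the ligands in blood and tissue fluid, prolong their life and control how much reaches the receptors. Proteases release the ligand again. In the heart IGF1 signalling is known for promoting growth and survival of muscle cells.

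The binding proteins are recognised by a cysteine-rich N-terminal domain. A run of codons from it was searched in the coding sequences of the 6 binding protein genes: a cysteine codon, a glycine codon, 2 cysteine codons, any 2 codons and a cysteine codon. It was found in 5 of the 6, and the lines here give it for each. The search set the cysteine and glycine codons, so the lines share these by design. Only the 2 codons that could be any, and the last base of the cysteine and glycine codons, were free to differ. The first of those 2 codons differed between all lines. The second was act in Igfbp3, Igfbp4 and Igfbp5 and gtg in Igfbp2 and Igfbp7. Cysteine codons are in capitals, and the positions are on GRCm38, with GENCODE M21 gene models.
Igfbp2, chr1:72824781-72824801, plus strand, from coding base 202: TGCggcTGCTGCtccgtgTGC
Igfbp3, chr11:7213566-7213586, minus strand, from coding base 205: TGCggcTGCTGCctgactTGC
Igfbp4, chr11:99041653-99041673, plus strand, from coding base 157: TGCggtTGTTGCgccactTGC
Igfbp5, chr1:72873966-72873986, minus strand, from coding base 154: TGTggcTGCTGCatgactTGC
Igfbp7, chr5:77407826-77407846, minus strand, from coding base 169: TGCgggTGCTGCccggtgTGT
Igfbp6 held no such run. In the transcripts of all protein-coding genes, in any reading frame and with untranslated parts included, 76 of 21877 genes (0.347%) held it. Igfbp2 and Igfbp5 lie on chromosome 1, from 72824503 to 72852474 and from 72857932 to 72874884.

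Levels are given as FPKM, a read density scaled to gene length and to library total. Library totals recovered from the steps of these values were 5154283 to 7378782 reads in ISO and 2776152 to 9862363 reads in saline. Saline 3 had the lowest total and stood apart. Across genes it correlated with each other library at r = 0.788 to 0.830, while the other 5 reached at least 0.918 among themselves. Markers of a 10-gene list for ventricular muscle, led by Tnnt2 and Tnni3, were present in every library (summed FPKM 12924 to 22056 in ISO and 30419 to 47271 in saline). As it holds genes of heart muscle in general, this list does not tell ventricle from atrium. The 6 atrial markers were also present in every library, although the tissue is labelled left ventricle. Their summed FPKM was 18069, 18212 and 15307 in ISO 1 to 3 and 26540, 23933 and 10442 in saline 1 to 3. Every ISO sum was below those of saline 1 and saline 2 and above that of saline 3. By log2 fold change with all libraries, 5 of the 6 were higher in ISO, as were 68.1% of all genes. Myl7, which led the sum, stood at 8354 to 11550.5 FPKM in ISO and at 7469 to 16664 FPKM in saline. In bulk tissue, fewer cells of a type and less RNA per cell cannot be told apart.

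The mRNAs of 4 binding proteins were the most abundant of the axis. Ordered by mean FPKM over the 6 libraries, the genes ran Igfbp7 (324), Igfbp4 (269.8), Igfbp5 (168), Igfbp6 (165), Igf2 (89.1), Igfbp3 (51.5), Igf1 (16.8), Igf2r (11.4), Igf1r (4.81) and Igfbp2 (2.19). Neighbours kept this order in 6 of 6 libraries from Igfbp6 down to Igf1, and again for Igf2r above Igf1r. Igf1 was above Igf2r in 5 of 6, as was Igfbp4 above Igfbp5 and Igf1r above Igfbp2. Igfbp7 was above Igfbp4 in 4 of 6 and Igfbp5 above Igfbp6 in 3 of 6, so those pairs were not separated beyond the spread between libraries. The lengths behind the deposited values were close to the annotated exon length for some genes and far from it for others, which limits comparisons of level between genes. Igfbp4 was scaled to 2069 bases, against 4416 bases of exon in GENCODE, and Igfbp7 to 1213 bases, against 1209.

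**Figure D1:**
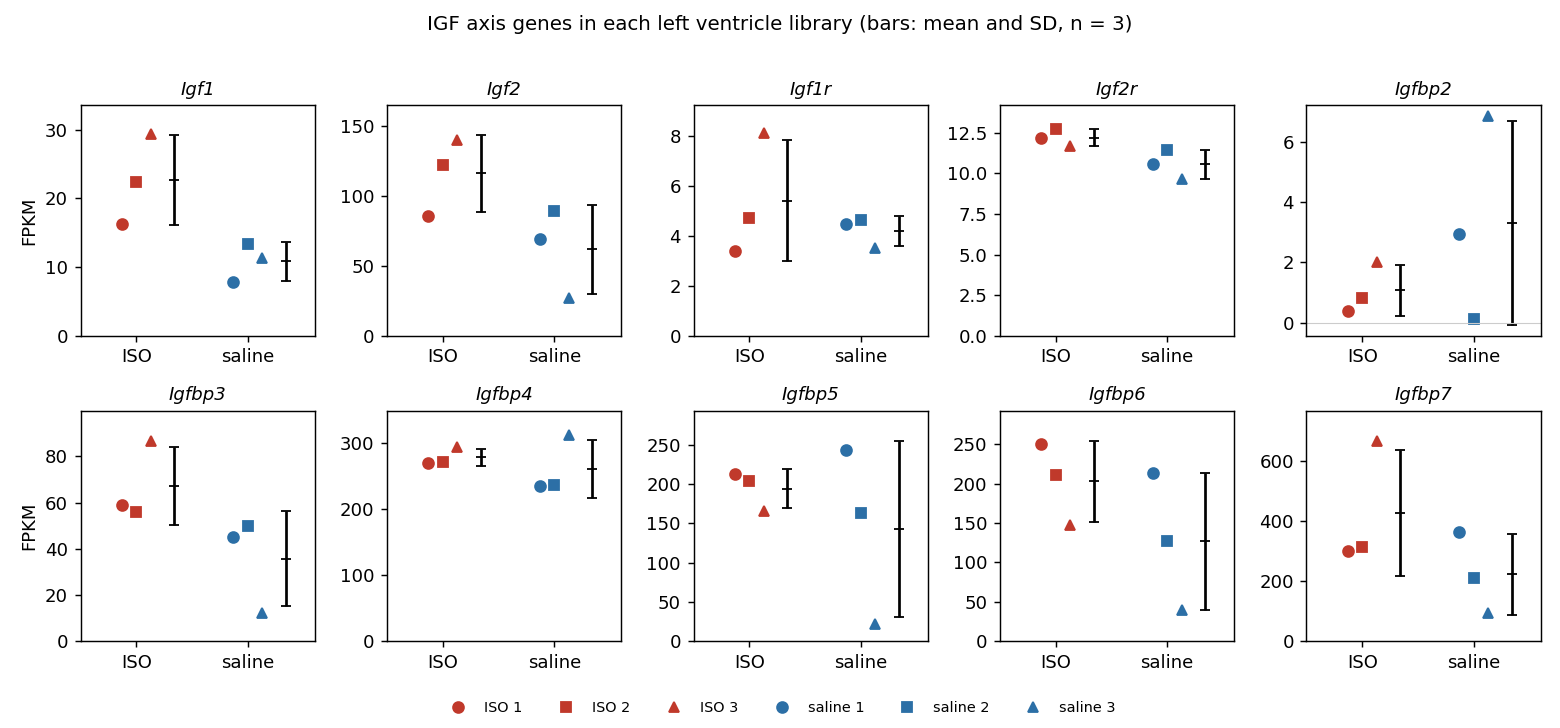
FPKM (y axes, one scale per gene) of the 10 IGF axis genes in the 3 ISO and 3 saline libraries, with the mean and SD of each group beside the points. The groups are apart for Igf1, Igf2r and Igfbp3, and saline 3 is the lowest library for Igf2, Igfbp3, Igfbp5, Igfbp6 and Igfbp7 but the highest for Igfbp2 and Igfbp4.

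No member passed the test of ISO against saline across all genes. With limma on log2(FPKM + 1), 0 of the 10 members and 0 of the 12269 genes tested (0% of all) had an adjusted p under 0.05, and 1 member had an unadjusted p under 0.05, against 774 genes (6.31%). That member was Igf1, higher in ISO, as were 4.92% of all genes at that level. All 10 members passed the filter of a mean of at least 1 FPKM over the 6 libraries. The groups did not overlap for 3 members, all higher in ISO, where 12.8% of all genes lay apart in that direction. None lay apart with ISO lower (3.72% of all genes). The median log2 fold change of the members was 0.97 and that of all genes was 0.20. After median-of-ratios scaling these were 0.76 and 0.02, and without saline 3 they were 0.25 and 0.06. Fold changes above 0 were found for 9 of 10 members (68.1% of all genes), for 7 of 10 after that scaling (51.7% of all genes) and for 8 of 10 without saline 3 (59.1% of all genes). All fold changes below are ISO over saline on the log2(FPKM + 1) scale, which understates changes of low genes. Those with all libraries, no weights and no rescaling are to be read against the median of 0.20. Those without saline 3 are to be read against 0.06 and those after median-of-ratios scaling against 0.02. The median of all genes was -0.0031 with quantile normalization and 0.05 with sample quality weights.

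Igf1, the ligand that growth hormone induces in liver and that many tissues also make locally, had the lowest p of the 10 members. It stood at 16.3, 22.4 and 29.4 FPKM in ISO 1 to 3, against 7.76, 13.4 and 11.4 FPKM in saline 1 to 3. Every ISO library was above every saline library. The nearest pair, ISO 1 and saline 2, rested on 1030 and 723 reads, with 95% counting intervals (exact Poisson) of 15.3 to 17.4 FPKM and 12.5 to 14.4 FPKM. These intervals do not meet, so the gap was larger than counting error alone, which is all that such intervals cover. The mean was 22.7 ± 6.54 FPKM in ISO and 10.8 ± 2.86 FPKM in saline (SD, n = 3 each). With limma the difference of 0.99 (log2, SE 0.31) had an unadjusted p of 0.0142 and an adjusted p of 0.699, and so was not called. It ran from 0.79 to 1.2 with each library left out in turn, and it was 1.04 without saline 3. The gene lies on chromosome 10, from 87858265 to 87937042 on the plus strand, and no exon of another annotated gene overlapped its exons.

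The call of Igf1 depended on how the libraries were weighted. Sample quality weights from limma counted saline 3 least (0.0772) and ISO 2 most (5.50), and with them Igf1 passed (log2 fold change 1.16, adjusted p = 0.0233). It was the only one of the 10 members to pass there, where 6.26% of all genes passed. With weights among the 5 libraries other than saline 3, an alternative added after the data were seen, it did not pass (log2 fold change 0.99, adjusted p = 0.139). Over all alternatives its adjusted p ran from 0.0233 to 0.874.

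Igf2, the ligand best known from fetal growth and an imprinted gene, was more abundant than Igf1 in every library. It stood at 85.7, 123 and 140.4 FPKM in ISO 1 to 3 and at 69.5, 89.1 and 26.9 FPKM in saline 1 to 3. ISO 1 was below saline 2, so the groups overlapped. Its log2 fold change was 1.03 (SE 0.46, limma adjusted p = 0.699) with all libraries and 0.53 without saline 3. Igf2 lies on chromosome 7, from 142650766 to 142666816 on the minus strand. The protein-coding gene Gm49394 on the same strand shares 3596 bases of its exons (62.8%) and the antisense gene Igf2os shares 98 bases. Which reads were given to Igf2 is therefore uncertain, as neither gene was analysed here and no source used here states the strand setting.

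The ratio of the ligands did not differ between the groups beyond the spread of saline. Igf1 was 0.191, 0.183 and 0.209 of Igf2 in ISO 1 to 3 and 0.112, 0.150 and 0.424 of it in saline 1 to 3. The ISO libraries lay close together and inside the range of the saline libraries. The mean log2 ratio was -2.37 ± 0.101 in ISO and -2.38 ± 1.01 in saline (SD, n = 3 each; exact permutation test, two-sided, p = 1, and adjusted p = 1 over the 4 quantities of this kind). With 3 against 3 libraries this test cannot go below 0.1. The difference was 0.01 with all libraries, 0.58 without saline 3 and -0.38 without saline 1.

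Both receptors were among the 3 members of lowest level, and neither passed. Igf1r, the kinase that carries the signal of both ligands, stood at 3.40, 4.72 and 8.14 FPKM in ISO 1 to 3 and at 4.48, 4.62 and 3.52 FPKM in saline 1 to 3. ISO 3 was the highest library and ISO 1 the lowest. The log2 fold change was 0.24 (SE 0.33, limma adjusted p = 0.771) with all libraries. It was -0.05 without ISO 3 and -0.02 with quantile normalization, so its direction rested on ISO 3 and on the scaling. It was also 0.14 without saline 3 and 0.48 without ISO 1.

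Igf2r, the clearance receptor of IGF2, which also carries lysosomal enzymes by their mannose 6-phosphate, stood at 12.2, 12.7 and 11.7 FPKM in ISO 1 to 3. In saline 1 to 3 it stood at 10.6, 11.5 and 9.68 FPKM. The groups did not overlap, but the nearest pair, ISO 3 and saline 2, had counting intervals of 10.8 to 12.6 FPKM and 10.6 to 12.3 FPKM, which share most of their range. The log2 fold change was 0.19 (SE 0.21, limma adjusted p = 0.733), about the median of all genes, and its sign turned with median-of-ratios scaling (-0.0038) and with quantile normalization (-0.02). Igf2r had the smallest range of the 10 members when each library was left out, from 0.14 to 0.25.

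Insr, the insulin receptor that can pair with IGF1 receptor chains, was set against Igf1r within each library. Igf1r was 0.157, 0.256 and 0.377 of Insr in ISO 1 to 3 and 0.173, 0.206 and 0.544 of it in saline 1 to 3. The groups overlapped, with Insr the more abundant in every library. The difference of the mean log2 ratio was -0.12 (exact permutation test, two-sided, p = 0.9, adjusted p = 1), and 0.39 without saline 3 and 0.21 without ISO 1.

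Of the binding proteins, Igfbp3, the main carrier of IGFs in blood, was apart between the groups. It stood at 58.9, 55.9 and 86.8 FPKM in ISO 1 to 3 and at 44.9, 50.1 and 12.2 FPKM in saline 1 to 3. All ISO libraries were above all saline libraries, and saline 3 was far below the other 5. The counting intervals of the nearest pair met, at 51.9 to 60.0 FPKM for ISO 2 against 46.7 to 53.6 FPKM for saline 2. For Igfbp3 the log2 fold change of 1.09 (SE 0.53, limma adjusted p = 0.699) was 0.47 without saline 3.

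Igfbp4, known as an inhibitor of IGF action that the protease PAPP-A cleaves, was the steadiest of the abundant binding proteins. Its values were 270.0, 272 and 293 FPKM in ISO 1 to 3 and 234, 237 and 312 FPKM in saline 1 to 3. Saline 3 was the highest library and saline 1 and 2 the lowest. A log2 fold change of 0.10 (SE 0.22, limma adjusted p = 0.858) turned to -0.11 with median-of-ratios scaling and was 0.24 without saline 3. Without saline 3 the ISO libraries lay above both saline libraries for 4 members, Igf1, Igf2r, Igfbp3 and Igfbp4, where 18.3% of all genes did. No member lay below both saline libraries, where 9.61% of all genes did.

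Igfbp5, the most conserved member of the family, which is bound by matrix, held 213, 204 and 166 FPKM in ISO 1 to 3. In saline 1 to 3 it held 243, 163 and 21.8 FPKM. Saline 1 was the highest library, and saline 3, with 355 reads, was far below all others. Its log2 fold change of 1 (SE 0.82, limma adjusted p = 0.70) became -0.04 without saline 3 and 1.66 without saline 1. It was -0.05 with sample quality weights. Among the other 5 libraries, the ISO values of 166 to 213 FPKM lay inside the saline values of 163 and 243 FPKM.

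Igfbp6, which prefers IGF2 over IGF1, stood at 250.0, 211 and 147 FPKM in ISO 1 to 3 and at 213, 128 and 39.7 FPKM in saline 1 to 3. The groups overlapped, with saline 1 above ISO 2 and ISO 3. For Igfbp6 the log2 fold change of 0.94 (SE 0.59, limma adjusted p = 0.699) was 0.27 without saline 3 and 1.46 without saline 1.

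Igfbp7, a relative with low affinity for IGFs that is abundant in vessel walls, stood at 299, 313 and 667 FPKM in ISO 1 to 3. In saline 1 to 3 it stood at 364, 209 and 94.4 FPKM. ISO 3 was the highest library and saline 1 was above ISO 1 and ISO 2. Its log2 fold change of 1.04 (SE 0.54, limma adjusted p = 0.699) was 0.52 without saline 3, 0.66 without ISO 3 and 1.49 without saline 1. Polr2b on the opposite strand shares 85 bases (7.03%) of the Igfbp7 exons and stood at 6.14 to 6.68 FPKM in all libraries.

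ISO 3, the highest library for Igfbp7 and Igf1r, also differed from ISO 1 and ISO 2 in markers of other tissues. Summed airway and lung markers were at 1.58, 3.05 and 188 FPKM in ISO 1 to 3 and at 7.98, 13.3 and 218 FPKM in saline 1 to 3. Scgb1a1 led these sums, at 182 FPKM in ISO 3 and 201 FPKM in saline 3, with Sftpc at 5.76 and 14.3 FPKM there. Of the 5 airway and lung markers 2 were tested, 1 was higher in ISO, and Sftpc, Sftpb, Sftpa1 and Ager were each listed at 0 in at least 1 library. Summed adipocyte markers were at 44.5, 44.0 and 341 FPKM in ISO 1 to 3 and at 86.7, 243 and 248 FPKM in saline 1 to 3, with 0 of 4 tested higher in ISO and none at 0. Summed liver markers were at 41.4, 47.8 and 229 FPKM in ISO 1 to 3 and at 115, 82.2 and 776 FPKM in saline 1 to 3. In ISO 3 most of this sum was Cyp2e1, at 204 FPKM. Alb stood at 16.4 FPKM in ISO 3, 15.2 FPKM in saline 1 and 306 FPKM in saline 3. Summed cartilage markers were high in ISO 2 and ISO 3, at 79.8 and 85.8 FPKM, against 7.24 FPKM in ISO 1. In saline 1 to 3 they stood at 2.32, 47.2 and 10.0 FPKM. Of 3 cartilage markers tested, 3 were higher in ISO, and Acan, Col2a1 and Matn1 were each listed at 0 in at least 1 library. Summed lymphocyte markers were at 26.9 FPKM in ISO 3 and at 4.87 to 8.90 FPKM in the other 5 libraries. The part of these other tissues in the IGF axis values, those of Igf1 included, was not tested.

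Igfbp2, a binding protein that liver and fetal tissues make in quantity, had the fewest reads of the 10 members. It stood at 0.382, 0.821 and 2.01 FPKM in ISO 1 to 3 and at 2.93, 0.112 and 6.86 FPKM in saline 1 to 3. These values rest on 4, 6 and 16 reads in ISO and on 41, 1 and 27 reads in saline. Saline 3 was the highest library and saline 2 the lowest. The log2 fold change of -0.73 (SE 0.71, limma adjusted p = 0.713) was -0.09 without saline 3 and -1.5 without saline 2.

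Saline 3, the library with the most Igfbp2, also held the most Igfals and Igfbp1, which were both low and not tested. The same library was the highest for Igfbp4 but the lowest for Igfbp3, Igfbp5, Igfbp6 and Igfbp7. Igfals, the acid-labile subunit that holds IGF complexes in blood, stood at 0.341, 0.0813 and 0.448 FPKM in ISO 1 to 3 and at 0.425, 0.266 and 4.23 FPKM in saline 1 to 3. Igfbp1, a liver binding protein under insulin control, was listed at 0 except in ISO 2 (0.128 FPKM) and saline 3 (0.948 FPKM). The summed level of 7 liver markers was 41.4 to 229 FPKM in ISO, against 82.2 to 776 FPKM in saline, highest in saline 3. The 2 liver markers of highest level differed in pattern. Alb was at 306 FPKM in saline 3 and at 1.91 to 16.4 FPKM in the other 5 libraries. Cyp2e1 was lowest in saline 3, at 31.1 FPKM, and highest in ISO 3, at 204 FPKM, with 35.7 to 76.3 FPKM in the other 4 libraries. Of the 7 markers 1 was higher in ISO, and Serpina1a was listed at 0 in at least 1 library. The part of these liver transcripts in the Igfbp2 values was not tested.

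**Figure D2:**
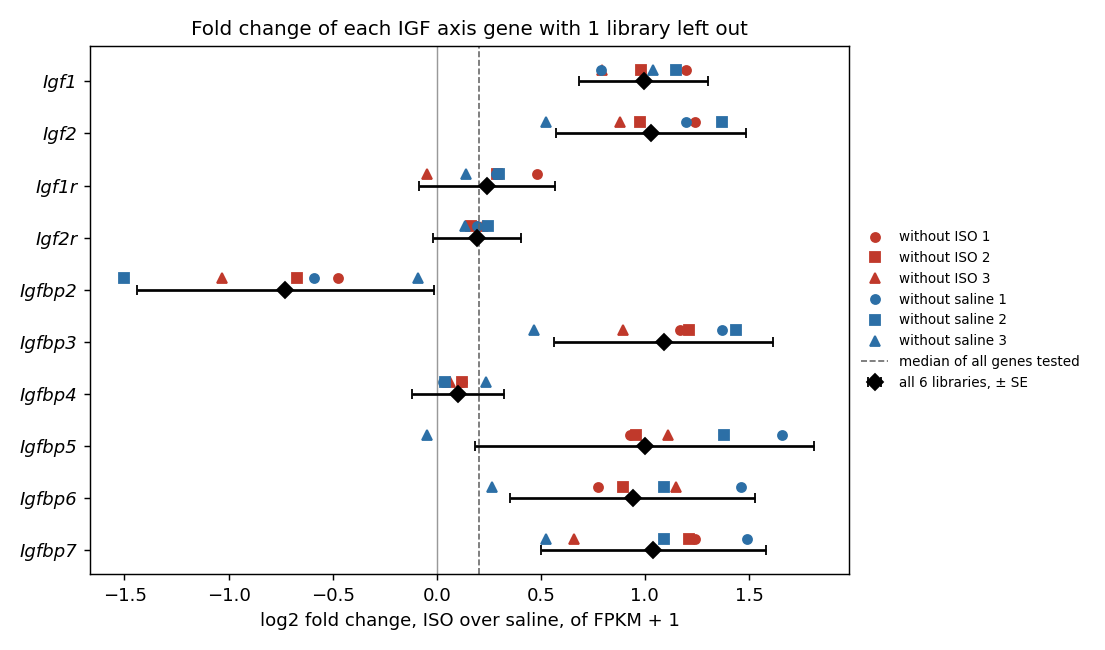
Log2 fold change, ISO over saline, of FPKM + 1 (x axis) for each IGF axis gene with all 6 libraries (diamonds, with SE) and with 1 library left out (coloured marks). Igf1 stays between 0.79 and 1.2 whichever library is left out, whereas Igfbp5 runs from -0.04 to 1.66 and lies at the lower end without saline 3.

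The summed FPKM of the 6 binding proteins was 1091, 1057 and 1362 in ISO 1 to 3 and 1103, 787 and 487 in saline 1 to 3. Saline 1 was inside the ISO range and saline 3 was the lowest. The mean was 1170.0 ± 167 in ISO and 792 ± 308 in saline (SD, n = 3 each). On the log2 scale the difference was 0.63 (exact permutation test, two-sided, p = 0.3, adjusted p = 1), and 0.32 without saline 3. Without Igfbp7, the binding protein of the highest mean, it was 0.43.

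Saline 3 also stood apart in the make-up of this sum. Igfbp4 made up 24.8%, 25.7% and 21.5% of it in ISO 1 to 3 and 21.3%, 30.2% and 64.1% in saline 1 to 3. Igfbp7 made up 27.4%, 29.6% and 48.9% in ISO 1 to 3, and 33.0%, 26.5% and 19.4% in saline 1 to 3. ISO 3 was thus the library with the largest Igfbp7 share, and saline 3 the one with the largest Igfbp4 share. Igfbp5 took 12.2% to 19.5% in ISO and 4.48% to 22.1% in saline. Igfbp6 took 10.8% to 22.9% in ISO and 8.15% to 19.3% in saline, and Igfbp3 took 5.28% to 6.38% in ISO and 2.50% to 6.37% in saline.

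**Figure D3:**
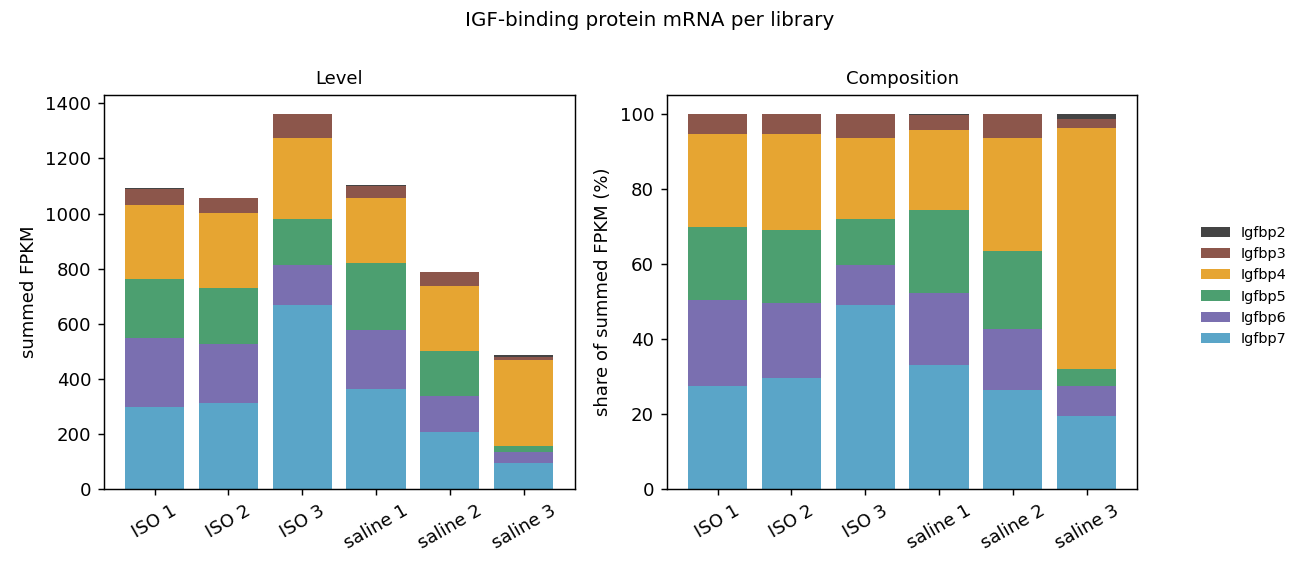
Summed FPKM of the 6 binding protein genes (left) and the share of each in that sum, in percent (right), for every ISO and saline library. Saline 3 has the lowest sum, 487 FPKM, and an Igfbp4 share of 64.1%, against 21.3% to 30.2% in the other 5 libraries.

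Igf1 was then set against its binding proteins within each library, where library scaling cancels. The ratio of Igf1 to the summed binding proteins was 0.0150, 0.0212 and 0.0216 in ISO 1 to 3 and 0.00704, 0.0170 and 0.0234 in saline 1 to 3. Saline 1 was the lowest and saline 3 the highest of the 6, so the groups overlapped. The log2 difference of 0.43 (exact permutation test, two-sided, p = 0.7, adjusted p = 1) was 0.80 without saline 3 and -0.07 without saline 1.

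The tested genes whose pattern over the 6 libraries was most like that of Igf1 were Sh3pxd2b, Sp140 and Pgd. The measure was the root mean square difference of centred log2(FPKM + 1) values over the 6 libraries. It was 0.0817 for Sh3pxd2b, an adaptor of podosomes, 0.128 for Sp140, a nuclear body protein of immune cells, and 0.1296 for Pgd, an enzyme of the pentose phosphate pathway. The median over all tested genes was 0.653. The root mean square of the centred Igf1 values themselves was 0.589. Sh3pxd2b stood at 4.25, 6.91 and 8.35 FPKM in ISO 1 to 3 and at 2.11, 3.86 and 3.19 FPKM in saline 1 to 3. The groups did not overlap, and the libraries were in the same order as for Igf1. As these genes were picked for closeness to Igf1 over the same libraries, such likeness is no separate support.

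Summed fibroblast, activated fibroblast, macrophage and erythroid markers did not overlap between the groups either, each with ISO higher. Among the leading genes of these lists, Gsn, Dcn, Comp and C1qa overlapped between the groups, while Postn, C1qb, Hba-a1 and Hbb-bs did not. Fibroblast markers were higher in ISO for 9 of 10 genes, with a summed level of 2765 to 3271 FPKM in ISO, against 1634 to 2299 FPKM in saline. Activated fibroblast markers were higher for 6 of 6 (168 to 264 FPKM in ISO, against 75.4 to 98.5 FPKM in saline). Macrophage markers were higher for 10 of 10 (648 to 924 FPKM in ISO, against 351 to 627 FPKM in saline). Of the ventricular muscle list, 0 of 10 were higher. Its sum did not overlap either, with ISO lower (12924 to 22056 FPKM in ISO, against 30419 to 47271 FPKM in saline). Erythroid markers had the largest median log2 fold change of the marker lists (2.03). They were higher for 7 of 7 genes, at a summed 14092 to 29592 FPKM in ISO, against 3254 to 6704 FPKM in saline. No marker of these 5 lists was at 0 in any library. Endothelial markers were higher for 8 of the 8 tested (669 to 855 FPKM in ISO, against 334 to 741 FPKM in saline, lowest in saline 3), and Cldn5 was listed at 0 in at least 1 library. The part of these cell types in the IGF axis values was not tested.

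Genes around the axis were read from lists chosen with earlier results of these data known. Of 16 partners outside the 10 members, 14 were in the table and 7 were tested. None passed (0 of 7, limma, as 0% of all genes), 5 were higher and 2 lower in ISO, and the median was 0.34, or 0.0021 without saline 3. Stc1, a stanniocalcin that inhibits the protease PAPP-A, was apart, at 1.30, 1.66 and 1.14 FPKM in ISO 1 to 3 and 2.14, 2.46 and 5.29 FPKM in saline 1 to 3 (log2 fold change -0.79, SE 0.35, limma adjusted p = 0.699). It was the only partner of the 7 tested for which the groups did not overlap, where 3.72% of all genes lay apart with ISO lower. The proteases Pappa and Pappa2 were low, at 0.0737 to 0.468 FPKM and 0.0889 to 0.350 FPKM in ISO, against 0.0327 to 0.331 FPKM and 0.0915 to 0.177 FPKM in saline. Ghr, the growth hormone receptor, stood at 32.4 to 47.3 FPKM in ISO, against 14.4 to 38.6 FPKM in saline, with a log2 fold change of 0.51. Igf2bp2, which binds Igf2 mRNA, had a log2 fold change of 0.38 and Stc2, the other stanniocalcin, one of 0.34.

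Below the receptors, 28 of 28 signalling genes were tested and 0 passed. Of these 17 were higher in ISO, but 11 after median-of-ratios scaling, and the median log2 fold change was 0.13, against 0.20 for all genes. Without saline 3 it was 0.13, against 0.06 for all genes. Shc1, an adaptor of growth factor receptors, stood at 24.7, 22.4 and 28.2 FPKM in ISO 1 to 3 and at 18.1, 19.4 and 11.7 FPKM in saline 1 to 3 (log2 fold change 0.61, limma adjusted p = 0.699). The ISO libraries were all above the saline libraries. They were also apart for Sos1, which activates Ras, with a log2 fold change of 0.59. In all, 5 of the 28 lay apart with ISO higher, as did 12.8% of all genes. Irs2, an adaptor of the insulin and IGF1 receptors, stood at 0.371, 2.61 and 3.06 FPKM in ISO 1 to 3 and at 0.354, 0.592 and 0.449 FPKM in saline 1 to 3. ISO 1 was thus at the level of saline, and the other 2 ISO libraries were above it (log2 fold change 0.90, limma adjusted p = 0.699).

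Of 16 other growth factor genes, 13 were tested and 0 passed, with 8 higher and 5 lower and a median of 0.10, or -0.24 without saline 3. Ins2, an insulin gene, was listed at 0 in every library. Ctf1, cardiotrophin, had a log2 fold change of -0.97, Vegfc, a lymphatic growth factor, one of 0.65, Pdgfa one of -0.64 and Pdgfc one of 0.79. Pdgfc was the only one of the 13 tested for which the groups did not overlap, where 12.8% of all genes lay apart with ISO higher. It stood at 1.75 to 2.77 FPKM in ISO, against 0 to 1.74 FPKM in saline, with saline 3 listed at 0.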

How the data were processed

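The deposited values are FPKM made by the authors, in 1 column per library. Per the submitters' processing notes, the tools were HISAT2 2.1.0, Cufflinks 2.2.1, fastp 0.20.0, CASAVA 1.8, DESeq and HTSeq 0.7.2, on GRCm38, with no role or order. Annotation and strand setting are not given in the sources used here. FPKM is relative to the library total, so a rise of abundant genes lowers the rest.

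Reads were recovered from the FPKM steps: 100% of the 16816 genes detected in 2 or more libraries gave whole reads within 0.0001. This and the fit were tested on simulated data. Values were tested as log2(FPKM + 1) with limma 3.58.1 in R 4.3.3 (trend, group only) over the 12269 genes that averaged 1 FPKM or more, with Benjamini-Hochberg adjustment at 0.05. Within-library quantities used exact permutation tests in scipy 1.17.1. Intervals cover counting error only. The members, lists and naming rule were chosen with earlier results of these data known. The rule named all members, up to 4 genes per list by p, and the 3 genes most like Igf1. Of the partner list, H19 and Igf2os were not analysed here. Some genes of the signalling list are not reported here.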

Additional observations from a re-analysis of the deposited data

How the results depend on the processing

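Calling 0 of 12269 genes and 0 of 10 members held under other pseudocounts, filters and scalings and with limma-voom on recovered reads (774 genes at an unadjusted p under 0.05 with limma and 676 with limma-voom). Sample quality weights called 768 genes and 1 member (Igf1), but 0 genes without saline 3, an alternative added after the data were seen. Leaving out ISO 1 called 16 genes, and leaving out 1 library gave 0 to 16 genes and 0 members. Deviations of same-numbered libraries from their group means correlated at 0.0129, -0.148 and -0.0255, and the replicate block called 0 genes and 0 members. With 3 libraries per group, such correlations cannot show whether same-numbered libraries were paired.

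Signs turned for Igf2r and Igfbp4 with median-of-ratios scaling (-0.0038 and -0.11) and for Igf1r and Igf2r with quantile normalization (-0.0198 and -0.0241). They also turned for Igfbp5 with quality weights (-0.0505). Each library left out in turn gave -0.0457 to 0.481 for Igf1r, -0.0444 to 1.66 for Igfbp5, -0.0708 to 0.80 for Igf1 over the summed binding proteins, -0.38 to 0.58 for Igf1 over Igf2, -0.44 to 0.39 for Igf1r over Insr and 0.32 to 0.91 for the binding protein sum. With the replicate block the last 4 differences were 0.43, 0.01, -0.12 and 0.63, each as without it, with exact sign-flip p-values of 0.5, 1, 0.75 and 0.5. The causes were not tested. Igfbp2 rested on 1 to 41 reads per library.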
